A study of Mus musculus with 20 samples.

Results

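Carbohydrate-driven lipogenic genes encode the enzymes and regulators with which the liver turns dietary sugar into fatty acids. They were described here through 10 genes: Mlxipl, Pklr, Acly, Me1, Acaca, Fasn, Elovl6, Scd1, Thrsp and Pnpla3. Every probe set whose only gene symbol was one of these names was taken, which gave 19 of the 28898 probe sets with 1 symbol and 10 of the 17097 genes measured. The livers came from 20 mice aged 11 weeks, with 1 array per mouse and 5 mice in each of 4 groups: progeroid mice on the restricted diet, progeroid mice on the control diet, wild type mice on the restricted diet and wild type mice on the control diet. Progeroid mice were Ercc1Δ/-, with a null allele and a truncated allele of a DNA repair gene in every tissue, and wild type mice were their littermates, so both genotypes were F1 hybrids of C57BL6J and FVB. All mice ate AIN93G pellets. Restriction started at 7 weeks of age with 10% less food, and by 9 weeks the cut was 30%. Restricted wild type mice were given 2.1 g per day, against 3.0 g eaten by wild type mice on the control diet, and a further amount of 1.6 g per day is listed for 30% restriction with no genotype attached. Restricted food was handed out just before the dark period, and the time of day at which the livers were taken is not given in the sources used here. The Ercc1 deficiency is not limited to the liver and the arrays read whole liver, so fewer cells of a type and less RNA per cell cannot be told apart.

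Glucose that enters the hepatocyte is broken down to pyruvate, exported from mitochondria as citrate and rebuilt into palmitate, which is then elongated, desaturated and stored as triglyceride. The transcription factor ChREBP, the product of Mlxipl, is activated by sugar metabolites and binds a carbohydrate response element built from a pair of E-box-like motifs, while SREBP-1c, switched on by insulin, acts on many of the same genes. In the mouse these genes are known to fall in fasting and to overshoot when food returns.

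Expression was read as RMA values on the log2 scale, where a step of 1 is a doubling; levels were set side by side only within a probe set. Ercc1 itself averaged 4.80 in restricted progeroid livers and 5.30 in progeroid livers on the control diet, against 6.15 in restricted wild type livers and 6.54 in wild type livers on the control diet, and every progeroid liver lay below every wild type liver on the same diet. Arrays correlated with each other between 0.979 and 0.997, and no pair held identical values. Neither labels nor file headers give a scan or extraction batch. The 8 hepatocyte markers measured were bright, with Alb between 14.27 and 14.39 in all 4 group means, and 0 of the 8 passed the test between genotypes on either diet. Of all 17097 genes 1883 passed it on the control diet and 2948 on the restricted diet, so 0 of 8 lies near those shares. Under restriction 1 of the 8 was higher in wild type livers, where 9.92% of all genes were. The Alb means stand close to the highest deposited value, 14.51, so these tests had little room to show a rise there.

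Restricted wild type livers had the highest mean of the 4 groups for 9 of the 10 genes, and restricted progeroid livers did not share this high level. On the restricted diet 9 of the 10 genes were lower in progeroid than in wild type livers at an adjusted p under 0.05 (limma, Benjamini-Hochberg over all 17097 genes), by between 1.47-fold for Mlxipl and 12.5-fold for Pnpla3, and Scd1 was the exception. Of all genes 5.44% were called lower in that comparison. The median log2 difference of the 10 genes was -1.44, and that of all genes was -0.003. On the control diet 2 of the 10 genes, Scd1 and Me1, were lower in progeroid livers, where 4.32% of all genes were, and the median of the 10 was -0.28. Restriction raised 3 of the 10 genes in wild type livers, Acaca, Pnpla3 and Pklr, against 9.92% of all genes called higher, with a median of 0.98 for the 10 and -0.03 for all genes. In progeroid livers restriction lowered 1 of the 10, Mlxipl, against 5.07% of all genes called lower, with a median of -0.13. Comparisons that share a group of mice share its arrays, so these counts are not independent of each other. The 10 genes were read in the same mice, so the genes within a count are not independent either.

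**Figure D1:**
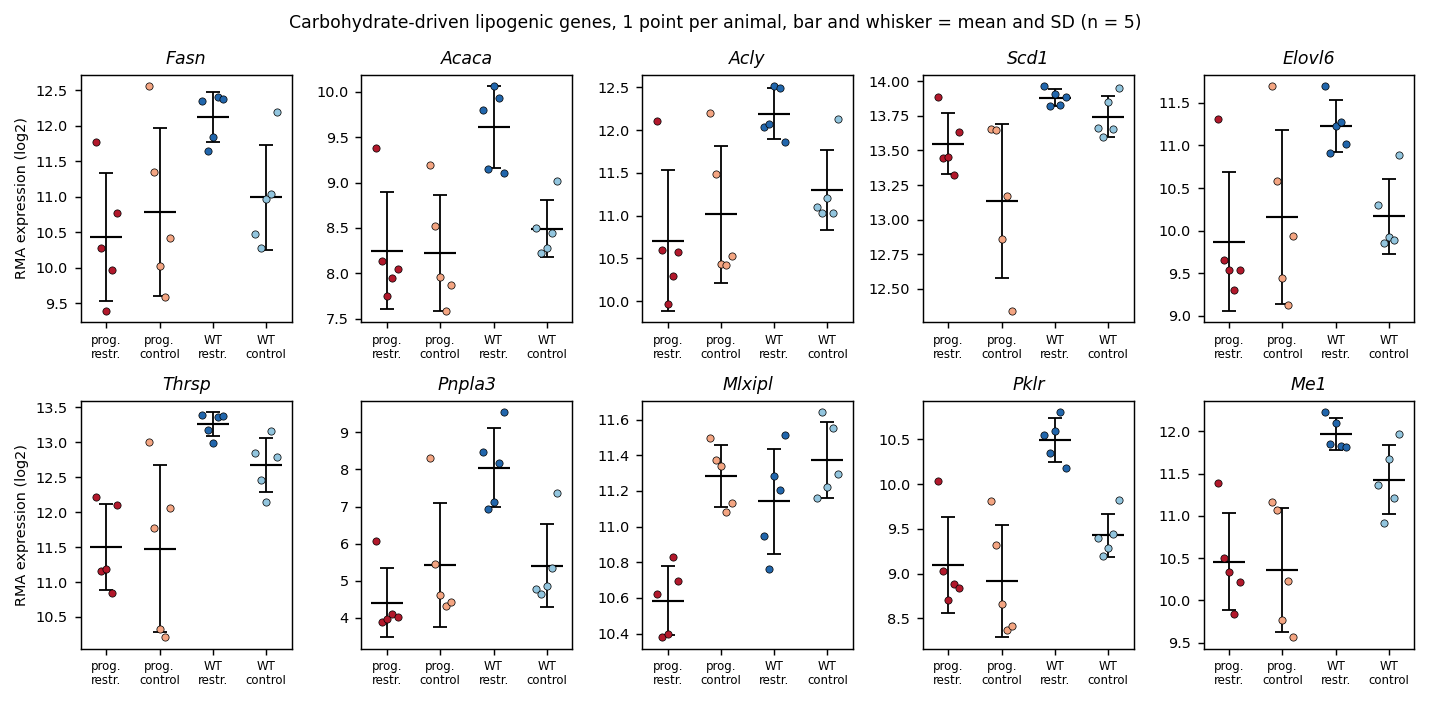
RMA level on the log2 scale of each gene's brightest probe set, 1 point per mouse, with the mean and SD of each group (n = 5). Restricted wild type livers sit highest in 9 of the 10 panels and Mlxipl is the exception; a few single mice lie far above their own group.

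**Figure D2:**
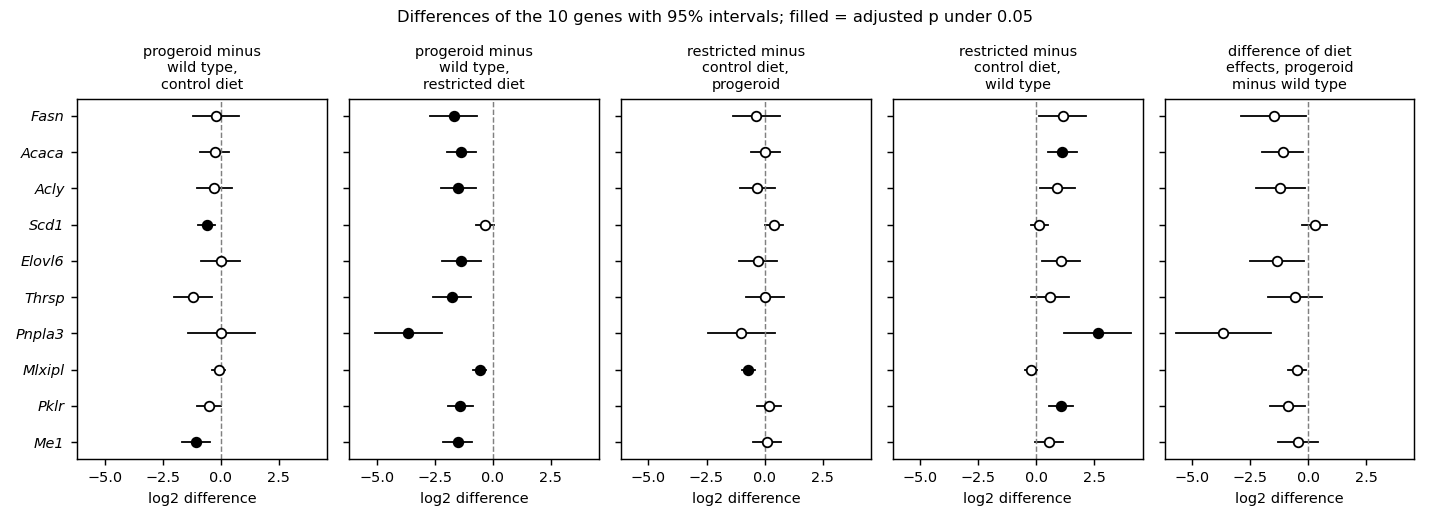
Log2 differences of the 10 genes in each of the 5 comparisons, with 95% intervals; filled points have an adjusted p under 0.05. In the comparison of genotypes on the restricted diet 9 of 10 points are filled and lie below 0, and in the difference of the diet effects none is filled.

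Mlxipl encodes ChREBP, the sugar-responsive transcription factor of the pathway. Its gene lies on chr5:135089890-135139768 (GRCm38.p6). In restricted progeroid livers its level was 10.62, 10.38, 10.40, 10.83 and 10.69, and in progeroid livers on the control diet it was 11.50, 11.37, 11.34, 11.08 and 11.13. Restricted wild type livers read 10.95, 10.76, 11.28, 11.20 and 11.51, and wild type livers on the control diet read 11.16, 11.64, 11.22, 11.55 and 11.29. All 5 restricted progeroid livers were below all 5 progeroid livers on the control diet, and they met the wild type range only at its lowest restricted mouse. Restriction lowered Mlxipl by 0.70 ± 0.13 on the log2 scale in progeroid livers (SE, adjusted p = 0.0015 by limma), which is 1.62-fold. Of all genes 3.78% were lower without overlap in that comparison. On the restricted diet it was 1.47-fold lower in progeroid than in wild type livers (log2 difference -0.56 ± 0.13, adjusted p = 0.00526). In wild type livers the diet difference was -0.23 ± 0.13 (adjusted p = 0.231), and on the control diet the genotype difference was -0.09 ± 0.13 (adjusted p = 0.74). Mlxipl had its highest mean in wild type livers on the control diet, where the other 9 members had theirs in restricted wild type livers. It was read by a single probe set whose name ends in a suffix for probes shared between transcripts of 1 gene.

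Pklr encodes the liver form of pyruvate kinase, the last step of glycolysis and a textbook target of ChREBP. It lies on chr3:89136122-89146815. Its level was 10.04, 9.03, 8.71, 8.88 and 8.84 in restricted progeroid livers and 9.81, 9.32, 8.67, 8.37 and 8.42 in progeroid livers on the control diet. Restricted wild type livers read 10.54, 10.35, 10.60, 10.80 and 10.17, and wild type livers on the control diet read 9.39, 9.20, 9.28, 9.44 and 9.82. Every restricted wild type liver lay above every liver of the other 3 groups. Pklr was 2.63-fold lower in restricted progeroid than in restricted wild type livers (log2 difference -1.39 ± 0.25, adjusted p = 0.000626 by limma), and 2.09-fold higher in restricted than in control-fed wild type livers (1.07 ± 0.25, adjusted p = 0.00434). In progeroid livers the diet difference was 0.18 ± 0.25 (adjusted p = 0.712). The 3 Pklr probe sets gave -1.46, -1.40 and -1.39 between genotypes on the restricted diet.

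The promoters of Pklr, Mlxipl and Fasn are shown because they carry, within 250 bases before and 50 bases after the RefSeq start site (GRCm38.p6), the letters of the motifs this pathway is known for. Windows were held for 9 of the 10 genes, 12 in all, since Mlxipl, Pklr and Me1 have 2 each, and both strands were searched. Capitals mark matches to the carbohydrate response element (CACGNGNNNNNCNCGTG), the E-box (CACGTG), the sterol response element core (TCACNCCAC) and the NF-Y box (CCAAT or its complement ATTGG). The Pklr window is chr3:89136373-89136672 on the plus strand, the Mlxipl window is chr5:135089640-135089939 on the plus strand, and the Fasn window is chr11:120824498-120824797, written along the minus strand on which the gene runs.
Pklr: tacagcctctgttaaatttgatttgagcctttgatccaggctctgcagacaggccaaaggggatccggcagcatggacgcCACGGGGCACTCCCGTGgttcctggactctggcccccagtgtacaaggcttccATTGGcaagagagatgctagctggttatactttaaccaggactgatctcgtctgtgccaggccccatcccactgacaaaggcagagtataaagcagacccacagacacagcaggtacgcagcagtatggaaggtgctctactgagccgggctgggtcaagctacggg
Mlxipl: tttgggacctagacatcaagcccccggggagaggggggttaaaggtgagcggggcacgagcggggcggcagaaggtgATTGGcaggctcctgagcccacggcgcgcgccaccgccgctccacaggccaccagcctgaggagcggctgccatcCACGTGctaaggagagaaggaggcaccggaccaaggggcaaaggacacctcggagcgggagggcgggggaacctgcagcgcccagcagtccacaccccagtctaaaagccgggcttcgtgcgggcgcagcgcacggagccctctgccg
Fasn: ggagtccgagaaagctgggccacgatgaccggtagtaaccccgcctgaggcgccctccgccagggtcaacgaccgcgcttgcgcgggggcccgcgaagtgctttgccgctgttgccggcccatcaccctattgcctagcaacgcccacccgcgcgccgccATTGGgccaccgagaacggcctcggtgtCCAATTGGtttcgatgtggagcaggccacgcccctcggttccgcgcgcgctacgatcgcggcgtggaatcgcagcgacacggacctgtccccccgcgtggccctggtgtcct
The Pklr window holds the carbohydrate response element pattern starting at position -170, counted from the start site, which 15 of 32851 promoter windows of this length hold (0.0457%). Of the 12 windows of the members it is the only one with that pattern. The Mlxipl window holds an E-box starting at position -98, a motif found in 7.15% of all windows, and the second Mlxipl window, which is not printed, holds a sterol response element core, found in 1.24%. Fasn has 3 NF-Y boxes, of which 2 overlap on opposite strands; 7 of the 12 windows hold such a box, against 37.4% of all windows. A match describes letters only, and elements known outside these windows were not searched.

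Acly encodes ATP citrate lyase, which splits exported citrate into the acetyl-CoA used for synthesis, and lies on chr11:100476352-100528000. It read 12.11, 10.60, 9.97, 10.29 and 10.58 in restricted progeroid livers and 12.21, 11.49, 10.43, 10.42 and 10.53 in progeroid livers on the control diet. Wild type livers read 12.03, 12.07, 12.52, 12.49 and 11.86 on the restricted diet and 11.10, 11.03, 11.21, 11.03 and 12.13 on the control diet. Of the restricted progeroid livers 4 lay below every restricted wild type liver, while mouse 362 lay inside the wild type range. Acly was 2.8-fold lower in progeroid livers on the restricted diet (log2 difference -1.48 ± 0.36, adjusted p = 0.00646 by limma). Its diet difference in wild type livers was 0.89 ± 0.36 (adjusted p = 0.083), with 4 of 5 control-fed livers below all restricted ones.

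Me1 encodes cytosolic malic enzyme, which supplies NADPH for fatty acid synthesis, and lies on chr9:86581363-86695914. Restricted progeroid livers read 11.39, 10.50, 10.34, 9.84 and 10.22, and progeroid livers on the control diet read 11.17, 11.07, 9.77, 10.22 and 9.56. Wild type livers read 12.23, 11.85, 12.10, 11.83 and 11.82 when restricted and 11.36, 10.92, 11.68, 11.22 and 11.97 on the control diet. Every progeroid liver on the restricted diet lay below every restricted wild type liver, and on the control diet the genotypes overlapped. Me1 was 2.85-fold lower in progeroid livers on the restricted diet (log2 difference -1.51 ± 0.29, adjusted p = 0.00112 by limma) and 2.10-fold lower on the control diet (-1.07 ± 0.29, adjusted p = 0.0209). Without progeroid mouse 325, progeroid mouse 327 or wild type mouse 405 the control-diet difference of Me1 had an adjusted p of 0.0596, 0.0644 or 0.0574. The other Me1 probe set gave -0.71 ± 0.33 there (adjusted p = 0.216 over all probe sets by limma). That call was also lost with the mean of all probe sets, without suffixed probe sets and with only the 2 groups fitted. In wild type livers the diet difference of the brightest Me1 probe set was 0.54 ± 0.29 (adjusted p = 0.216), and that of its other probe set was 1.32 ± 0.33 (adjusted p = 0.00735 over all probe sets).

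Acaca encodes acetyl-CoA carboxylase 1, which makes malonyl-CoA and sets the pace of the pathway, and lies on chr11:84129635-84401651. Its level was 9.38, 8.13, 7.75, 7.94 and 8.05 in restricted progeroid livers, against 9.80, 9.15, 10.07, 9.93 and 9.11 in restricted wild type livers. Without restriction it was 9.19, 8.52, 7.96, 7.59 and 7.87 in progeroid livers and 8.50, 8.22, 8.28, 8.45 and 9.02 in wild type livers. Every restricted wild type liver was above every control-fed wild type liver, and only mouse 362 of the restricted progeroid livers reached the restricted wild type range. Acaca was 2.57-fold lower in restricted progeroid than in restricted wild type livers (log2 difference -1.36 ± 0.30, adjusted p = 0.00313 by limma) and 2.17-fold higher in restricted than in control-fed wild type livers (1.12 ± 0.30, adjusted p = 0.0104). In progeroid livers the diet difference was 0.03, with a 95% interval from -0.60 to 0.65.

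Fasn encodes fatty acid synthase, the enzyme that builds palmitate, and lies on chr11:120805958-120825166. Restricted progeroid livers read 11.77, 10.28, 9.39, 9.97 and 10.77, against 12.35, 11.64, 11.84, 12.40 and 12.37 in restricted wild type livers. On control food it read 12.56, 11.35, 10.03, 9.59 and 10.42 in progeroid livers and 10.47, 10.28, 10.97, 11.03 and 12.19 in wild type livers. The progeroid control group ran across almost the whole span of the study, with mouse 321 above every other liver. Fasn was 3.22-fold lower in progeroid livers on the restricted diet (log2 difference -1.69 ± 0.48, adjusted p = 0.0182 by limma). That call for Fasn was lost without restricted progeroid mouse 366 (adjusted p = 0.0605) or 368 (adjusted p = 0.0506). The diet difference of Fasn in wild type livers was 1.13 ± 0.48 (adjusted p = 0.0997), and without progeroid mouse 321 or wild type mouse 405 the adjusted p of Fasn was 0.0463 or 0.0391. Over 28 alternative fits by limma the adjusted p of this Fasn difference ran from 0.0206 to 0.214, and 25 of them left it uncalled.

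Elovl6 encodes the elongase that carries palmitate to stearate, and lies on chr3:129532386-129638495. Its brightest probe set read 11.31, 9.66, 9.54, 9.31 and 9.54 in restricted progeroid livers, against 11.70, 10.91, 11.23, 11.28 and 11.02 in restricted wild type livers. On control food it read 11.70, 10.58, 9.44, 9.13 and 9.94 in progeroid livers and 10.30, 9.85, 9.92, 9.89 and 10.88 in wild type livers. Restricted wild type livers lay above all control-fed wild type livers, and above 4 of the 5 restricted progeroid livers. Elovl6 was 2.56-fold lower in progeroid livers on the restricted diet (log2 difference -1.36 ± 0.40, adjusted p = 0.0222 by limma), a call that was lost for Elovl6 without restricted progeroid mouse 366, 368 or 369 or restricted wild type mouse 421 (adjusted p between 0.0501 and 0.0654). Its diet difference in wild type livers was 1.06 ± 0.40 (adjusted p = 0.0626).

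Scd1 encodes stearoyl-CoA desaturase, which makes oleate, and lies on chr19:44394450-44407709. The probe set that stood for it read 13.89, 13.45, 13.45, 13.32 and 13.63 in restricted progeroid livers, against 13.97, 13.82, 13.91, 13.83 and 13.88 in restricted wild type livers. On control food it read 13.66, 13.65, 12.86, 13.17 and 12.34 in progeroid livers and 13.66, 13.60, 13.85, 13.65 and 13.95 in wild type livers. These values stand close to the highest deposited value, 14.51. Its genotype difference was -0.33 ± 0.18 on the restricted diet (adjusted p = 0.229 by limma) and -0.61 ± 0.18 on the control diet (adjusted p = 0.0316). The control-diet call for Scd1 was lost without progeroid mouse 325, 326 or 327 or wild type mouse 403 or 405 (adjusted p between 0.0506 and 0.0771). That call was also lost with the mean of all probe sets, with trend and robust settings and with only the 2 groups fitted (adjusted p up to 0.109 by limma). The second Scd1 probe set read 10.55, 9.11, 9.06, 8.52 and 9.20 in restricted progeroid livers, all below the 11.31, 10.81, 11.42, 11.54 and 10.99 of restricted wild type livers. Adjusted over all probe sets, its genotype difference on the restricted diet was -1.92 ± 0.48 (adjusted p = 0.0087) and its diet difference in wild type livers was 1.49 ± 0.48 (adjusted p = 0.0303). Its genotype difference on the control diet was -1.43 ± 0.48 (adjusted p = 0.0672 over all probe sets by limma). Residuals of the 2 Scd1 probe sets from their group means correlated at 0.936 over the 20 arrays, so they ordered mice alike while differing in range.

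Thrsp encodes Spot 14, a small protein of lipogenic tissues that responds to thyroid hormone and carbohydrate, and lies on chr7:97412933-97417550. Restricted progeroid livers read 12.21, 11.16, 11.18, 10.84 and 12.10, and progeroid livers on the control diet read 13.01, 11.77, 10.33, 10.21 and 12.06. Wild type livers read 13.39, 13.18, 12.99, 13.36 and 13.37 on the restricted diet and 12.84, 12.46, 12.14, 13.16 and 12.79 on the control diet. All restricted progeroid livers were below all restricted wild type livers, and on the control diet 4 of 5 progeroid livers were below all wild type livers. Thrsp was 3.38-fold lower in progeroid livers on the restricted diet (log2 difference -1.76 ± 0.40, adjusted p = 0.0038 by limma). On the control diet the difference was -1.20 ± 0.40 (adjusted p = 0.0574), and without progeroid mouse 321 it was -1.58 (adjusted p = 0.00491) for Thrsp. That was the lowest adjusted p of 28 alternative fits by limma. The highest was 0.157, and 22 of the 28 left this Thrsp difference uncalled. Diet differences were 0.02 ± 0.40 in progeroid livers (adjusted p = 0.982) and 0.58 ± 0.40 in wild type livers (adjusted p = 0.338).

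Pnpla3 encodes a lipid droplet protein related to triglyceride lipases, and lies on chr15:84167776-84189521. Of the 10 genes it differed most between genotypes on the restricted diet and between diets in wild type livers. Restricted progeroid livers read 6.07, 3.88, 3.97, 4.10 and 4.02, and progeroid livers on the control diet read 8.31, 5.44, 4.60, 4.32 and 4.42. Restricted wild type livers read 8.46, 6.93, 7.13, 8.18 and 9.54, and wild type livers on the control diet read 4.79, 4.66, 4.87, 5.36 and 7.36. All restricted progeroid livers were below all restricted wild type livers, and 4 of them lay below the array medians of 4.17 to 4.21, where RMA values understate folds. Pnpla3 was 12.5-fold lower in progeroid livers on the restricted diet (log2 difference -3.64 ± 0.69, adjusted p = 0.000936 by limma). In wild type livers it was 6.25-fold higher under restriction (2.64 ± 0.69, adjusted p = 0.00873), with mouse 405 of the control-fed livers above the lowest restricted livers. Its diet difference in progeroid livers was -1.01 ± 0.69 (adjusted p = 0.396). The counts of the 10 genes without overlap between genotypes on the restricted diet came to 4, Thrsp, Pnpla3, Pklr and Me1, all lower, where 3.94% of all genes did so. In wild type livers 3 genes, Acaca, Elovl6 and Pklr, separated the diets without overlap, all higher, where 6.90% of all genes did so.

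The counts between diets in wild type livers moved with the arrays that shared the fit. With only the 2 wild type groups in the fit 8 of the 10 genes were called higher, all but Scd1 and Mlxipl, and leaving out progeroid mouse 321, progeroid mouse 362 or wild type mouse 405 gave 6, 5 or 6. Of all 17097 genes 3842 were called in either direction in the main fit. That number ran from 3156 to 3966 with 1 mouse left out, and from 3151 to 4204 over the other settings, the 2-group fit among them. Between genotypes on the control diet the count of 2 became 0 with only the 2 groups fitted, and ranged from 0 to 4 when 1 mouse was left out: 4 without mouse 321, 0 without mouse 325 or 405, and 1 without mouse 326 or 327. Over all genes 1883 were called there in the main fit, 1510 to 1941 with 1 mouse left out and 1552 to 3562 over the other settings. In both comparisons the other settings include 2 that test fewer genes, 15261 without suffixed probe sets and 8878 with a mean level of at least 5.

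Each of the 19 probe sets was also fitted and adjusted on its own. They read 10 genes in the same mice, so the probe sets within a count are not independent of each other. On the restricted diet 18 of 19 were lower in progeroid than in wild type livers, where 5.03% of all probe sets were, and the exception was the bright Scd1 probe set. In wild type livers 10 of 19 were higher under restriction, where 9.87% of all probe sets were. On the control diet 2 of 19 were lower in progeroid livers, where 3.97% of all probe sets were, and in progeroid livers 1 of 19 was lower under restriction, where 4.23% were. Probe sets of 1 gene moved together from mouse to mouse for Acly, Pklr, Thrsp, Me1 and Scd1, with correlations of residuals between 0.911 and 0.989 over 20 arrays. For Acaca the correlation was 0.582, and its second probe set lay between 3.32 and 5.21. The third Elovl6 probe set correlated at 0.173 and 0.178 with the other Elovl6 probe sets, which correlated at 0.990 with each other, so it did not track them. That probe set read 5.72, 5.79, 5.28, 6.52 and 7.22 in restricted progeroid livers, against 7.93, 8.06, 7.35, 7.31 and 9.15 in restricted wild type livers. On control food it read 8.06, 6.77, 6.94, 6.56 and 6.19 in progeroid livers and 4.83, 4.97, 6.57, 5.26 and 6.28 in wild type livers. Means were 6.11 in restricted and 6.90 in control-fed progeroid livers, and 7.96 in restricted and 5.58 in control-fed wild type livers, the lowest of the 4. All restricted wild type livers were above all control-fed wild type livers. On the control diet this probe set was higher in progeroid livers by 1.32 ± 0.42 (adjusted p = 0.0552 by limma). Its diet effect in progeroid minus that in wild type livers was -3.18 ± 0.60 on the log2 scale (adjusted p = 0.016 by limma), and it was 1 of 19 probe sets called lower in that test, where 0.291% of all probe sets were.

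**Figure D3:**
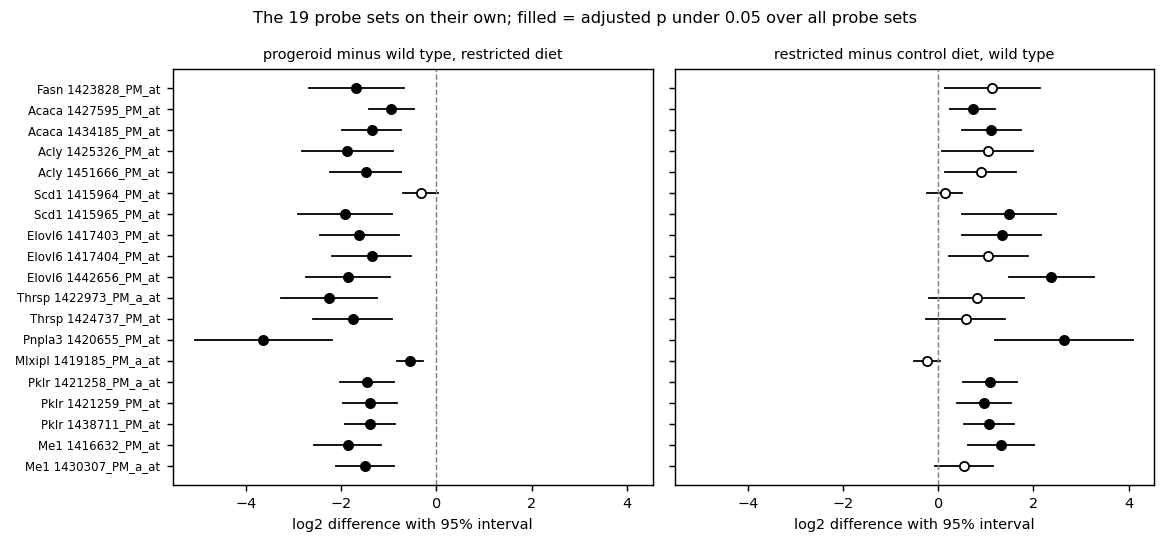
Log2 differences with 95% intervals of all 19 probe sets, on the left progeroid minus wild type on the restricted diet and on the right restricted minus control diet in wild type mice; filled points have an adjusted p under 0.05 over all probe sets. On the left 18 points are filled and below 0, and on the right 10 are filled and above 0.

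Whether restriction acted differently in the genotypes was tested as the diet effect in progeroid livers minus that in wild type livers. By limma 0 of the 10 genes passed at an adjusted p under 0.05, where 1.40% of all genes did, while 7 of the 10 had an unadjusted p under 0.05, as did 14.2% of all genes. The differences lay below 0 for 9 of the 10 genes, with a median of -0.99 against 0.02 for all genes. Pnpla3 had a difference of -3.65 ± 0.98 (adjusted p = 0.0672), Fasn -1.49 ± 0.68 (adjusted p = 0.319), Elovl6 -1.34 ± 0.56 (adjusted p = 0.272) and Acly -1.20 ± 0.51 (adjusted p = 0.282). Acaca had -1.09 ± 0.43 (adjusted p = 0.233), Pklr -0.88 ± 0.36 (adjusted p = 0.257) and Mlxipl -0.47 ± 0.19 (adjusted p = 0.247). Their 95% intervals excluded 0 before adjustment, those of Thrsp, Me1 and Scd1 did not, and Scd1 alone lay above 0 (0.28, from -0.25 to 0.81). Pnpla3 passed with array weights (adjusted p = 0.027), among genes with a mean level of at least 5 (adjusted p = 0.0476), and when mouse 362 or mouse 405 was left out (adjusted p = 0.0321 and 0.0303), and Elovl6 passed with the mean of all its probe sets (adjusted p = 0.0333). That Elovl6 mean includes the third probe set, which had -3.18 on its own and did not track the others.

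Within a group the 10 genes tended to be high or low together in the same mouse. Mouse 321, a control-fed progeroid, was above its group mean for all 10 genes, by 1.23 on average on the log2 scale, and mouse 362, a restricted progeroid, was above for all 10 by 0.99 on average. Mouse 323 was also above for all 10, by 0.38, and wild type mouse 405 on the control diet was above for 9 of 10, by 0.64. Mouse 366 of the restricted progeroids and mouse 422 of the restricted wild types were below for all 10, by 0.42 and 0.33 on average. These mice are named from their values, and no group was formed from them. Like every other mouse, each was left out in turn, and some calls were gained without mouse 321, 362 or 405.

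Residuals from the group means correlated between pairs of the 10 genes with a median Pearson r of 0.726 over the 20 arrays, and 44 of the 45 pairs were above 0. The pair of Acaca and Pklr had the highest value, 0.961, and Mlxipl with Me1 the lowest, -0.035. Mlxipl stood apart from the rest, with a median r of 0.216 to the other members, while Acly, Pklr and Fasn had medians of 0.843, 0.835 and 0.834. Mice 321 and 362 lay farthest from their group means, by 1.23 and 0.99 on average over the 10 genes. The r of the pairs was not computed without them, so it may rest in part on these mice. The residuals share arrays and normalisation, and the median r of the other 17087 genes with the mean residual of the members was 0.002. That r sets a gene against a mean of 10 genes, so it is not the same measure as the r of a pair. It is also a signed median, and single genes lay as low as -0.882. The 6 genes outside the 10 whose residuals were most alike to that mean were Gpam at 0.900, Pstpip2 at 0.895, Sgsm1 at 0.881, Cxadr at 0.877, Rnd2 at 0.862 and Acsl3 at 0.860. Without the 2 mice farthest from the median these became 0.799, 0.753, 0.707, 0.794, 0.703 and 0.750. Gpam, the mitochondrial acyltransferase that starts glycerolipid synthesis, was lower in progeroid livers on the restricted diet (log2 difference -0.75, adjusted p = 0.0294 by limma), a call lost for Gpam without mouse 365, 366, 368, 424 or 425 (adjusted p between 0.0656 and 0.0889). Acsl3, which activates long-chain fatty acids, was higher in restricted than in control-fed wild type livers (1.28, adjusted p = 0.0129), and Rnd2 was too (1.89, adjusted p = 6.34e-07). Cxadr went the other way from the members in wild type livers. It was lower under restriction there (-0.57, adjusted p = 0.0456), a call lost for Cxadr with the mean of all probe sets, centring, trend and robust settings or any of 9 single mice left out (adjusted p up to 0.448), and in progeroid livers (-0.77, adjusted p = 0.0149; 0.107 with the mean of all probe sets).

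**Figure D4:**
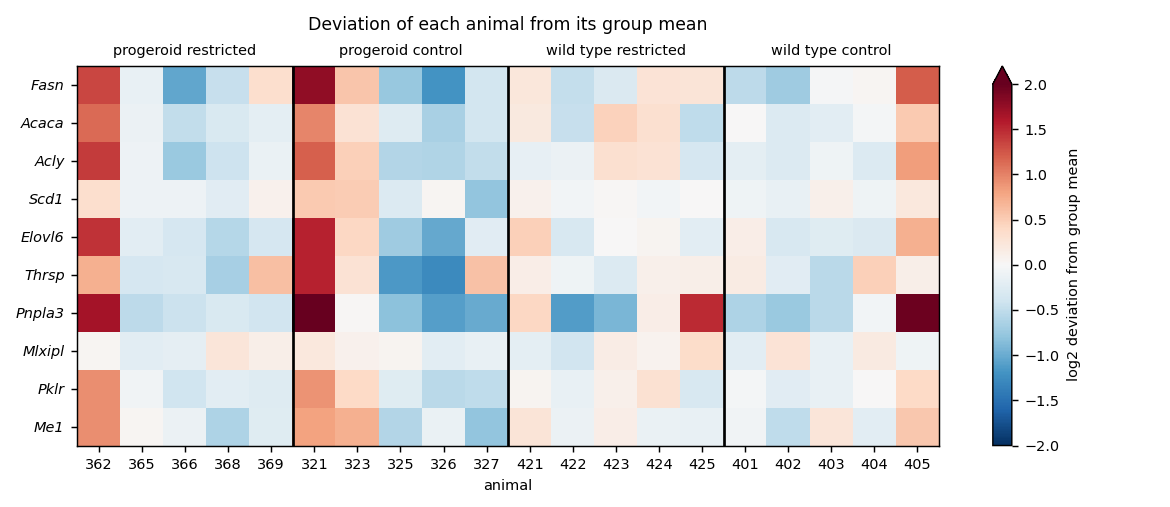
Deviation of each mouse from its own group mean, on the log2 scale, for the 10 genes (rows) and the 20 mice (columns, by group); colours stop at 2 in either direction. The columns of mice 321, 362 and 405 are red for nearly every gene, and the Mlxipl row is pale throughout.

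The spread between mice was itself large for these genes. The SD within groups was 1.23 for Pnpla3, 0.850 for Fasn, 0.706 for Elovl6 and 0.705 for Thrsp, against a median of 0.164 over the 8878 genes with a mean level of at least 5. Mlxipl, with 0.223, had the smallest SD of the 10. The SD was larger in progeroid than in wild type livers on the control diet for 9 of the 10 genes, where it was so for 61.3% of those 8878 genes, and on the restricted diet for 8 of 10, where it was so for 40.0%. Thrsp had an SD of 1.19 in progeroid livers and 0.39 in wild type livers on the control diet. Single mice weigh on these SDs. Mouse 321 was above the control-fed progeroid mean for all 10 genes, by 1.23 on average. Mouse 362 was above the restricted progeroid mean for all 10, by 0.99, and mouse 405 above the control-fed wild type mean for 9, by 0.64. SDs without these mice were not computed, and the difference in SD was not tested.

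Genes that feed or regulate the pathway were read from lists of known function. Beside their counts stand the shares of all genes: 11.8% were called higher and 5.44% lower in progeroid livers on the restricted diet, and 9.92% higher and 12.6% lower under restriction in wild type livers. Of 15 measured regulators of lipogenic transcription, 1 was higher and 1 lower in progeroid livers on the restricted diet, and 0 were higher and 3 lower under restriction in wild type livers, and 1 of 15 is near the share of all genes called lower between genotypes. Srebf1, which encodes SREBP-1c, had no probe set of its own symbol alone here. Pparg, a nuclear receptor that promotes lipid storage, was the regulator that was higher in restricted progeroid livers (log2 difference 0.95, adjusted p = 0.00174 by limma), and it also rose with restriction in progeroid livers (0.87, adjusted p = 0.00593). Nr1h3, which encodes the oxysterol receptor LXRα, fell by 0.34 with restriction in wild type livers (adjusted p = 0.00194).

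Glucose and fructose entry and glycolysis had 9 measured genes, of which 0 were higher and 2 lower in restricted progeroid livers (11.8% and 5.44% of all genes), and 5 were higher and 1 lower under restriction in wild type livers (9.92% and 12.6% of all genes). Slc2a2, the hepatic glucose transporter, rose by 0.41 in wild type livers (adjusted p = 0.00021 by limma) and Pgk1, a glycolytic kinase, by 0.40 (adjusted p = 0.000299). Among 7 other genes known to be regulated by ChREBP, 0 were higher and 2 lower in restricted progeroid livers, and 3 were higher and 2 lower under restriction in wild type livers, against the same shares. Arrdc4, an arrestin-domain protein, rose with restriction in both genotypes, by 1.33 in progeroid livers (adjusted p = 3.92e-05) and by 2.11 in wild type livers (adjusted p = 3.18e-08), and it was lower in restricted progeroid than in restricted wild type livers (-0.83, adjusted p = 0.0015), a call that the mean of all Arrdc4 probe sets did not give (adjusted p = 0.308). Tm6sf2, which takes part in very low density lipoprotein secretion, rose with restriction by 0.72 in progeroid livers (adjusted p = 0.00207) and by 1.27 in wild type livers (adjusted p = 2.19e-06). Txnip, a thioredoxin-binding protein induced by glucose, rose with restriction in progeroid livers (0.72, adjusted p = 0.0454), a call lost for Txnip when any of 11 single mice was left out (adjusted p up to 0.106), and its difference in wild type livers was 0.29 (adjusted p = 0.413).

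Of 8 measured genes of NADPH supply 0 were higher and 3 lower in restricted progeroid livers (11.8% and 5.44% of all genes), and 5 were higher and 0 lower under restriction in wild type livers (9.92% and 12.6% of all genes). Pgd, an enzyme of the pentose phosphate pathway, was lower in restricted progeroid livers (log2 difference -1.21, adjusted p = 0.00231 by limma) and rose with restriction in wild type livers (1.59, adjusted p = 0.000144). Idh2, mitochondrial isocitrate dehydrogenase, rose with restriction in both genotypes, by 0.72 in progeroid livers and by 0.80 in wild type livers, calls that were lost without the suffixed probe sets (adjusted p = 0.0703 and 0.199 for Idh2). Of 9 measured genes of citrate and acetyl-CoA supply, 1 was higher and 4 lower in restricted progeroid livers, and 6 were higher and 0 lower under restriction in wild type livers, against the same shares. Pdha1, a subunit of pyruvate dehydrogenase, was lower in restricted progeroid livers (-0.31, adjusted p = 0.00603) and rose with restriction in wild type livers (0.56, adjusted p = 1.65e-05), while Slc25a10, the dicarboxylate carrier, rose with restriction in progeroid livers (0.48, adjusted p = 3.97e-05). Acss2, which makes acetyl-CoA from acetate, and Tkfc, which phosphorylates fructose products, were picked after their values were seen; their log2 differences in restricted progeroid livers were -1.42 for Acss2 (adjusted p = 0.00302) and -1.05 for Tkfc (adjusted p = 0.00259).

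Other genes of fatty acid synthesis, elongation and desaturation did not follow 1 direction: of 13 measured, 3 were higher and 2 lower in restricted progeroid livers (11.8% and 5.44% of all genes), and 1 was higher and 4 lower under restriction in wild type livers (9.92% and 12.6% of all genes). Acacb, the mitochondrial acetyl-CoA carboxylase, was picked after its values were seen; it was lower in progeroid livers on the restricted diet (log2 difference -2.68, adjusted p = 0.000814 by limma). Elovl3, an elongase of very long chains, averaged 6.60 in restricted progeroid livers and 11.34 in control-fed progeroid livers, 4.83 in restricted wild type livers and 11.75 in control-fed wild type livers. With restriction Elovl3 fell by 4.74 in progeroid livers and fell by 6.92 in wild type livers, and the difference of the diet effects was 2.18 (adjusted p = 0.0253), or an adjusted p of 0.0551 for Elovl3 without restricted wild type mouse 423. Hsd17b12, a reductase of the elongation cycle, was lower in progeroid livers on the restricted diet (-0.32, adjusted p = 0.00561) and on the control diet (-0.37, adjusted p = 0.00327). Mid1ip1, the partner of Spot 14 in activating acetyl-CoA carboxylase, had a difference of -0.88 on the restricted diet (adjusted p = 0.0515).

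Glycerolipid assembly had 8 measured genes, of which 2 were higher and 2 lower in restricted progeroid livers (11.8% and 5.44% of all genes), and 1 was higher and 1 lower under restriction in wild type livers (9.92% and 12.6% of all genes). Plin2, the protein that coats hepatic lipid droplets, averaged 12.20 in restricted progeroid livers and 12.41 in control-fed progeroid livers, 11.28 in restricted wild type livers and 12.65 in control-fed wild type livers. It was higher in restricted progeroid than in restricted wild type livers (log2 difference 0.92, adjusted p = 0.000791 by limma), opposite to the members, and the difference of the diet effects was 1.16 (adjusted p = 0.0231), or an adjusted p of 0.0517 for Plin2 without restricted wild type mouse 423. Lpin2, a phosphatidate phosphatase, rose with restriction in progeroid livers (0.84, adjusted p = 0.00286). Among 11 measured genes of insulin receptor signalling 1 was higher and 1 lower in restricted progeroid livers, and 2 were higher and 1 lower under restriction in wild type livers, counts near those shares. Trib3, an inhibitor of the kinase AKT, was higher in restricted progeroid livers (1.77, adjusted p = 0.000166), and Pck1, the gluconeogenic enzyme repressed by insulin, rose with restriction in wild type livers (0.66, adjusted p = 0.00347).

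**Figure D5:**
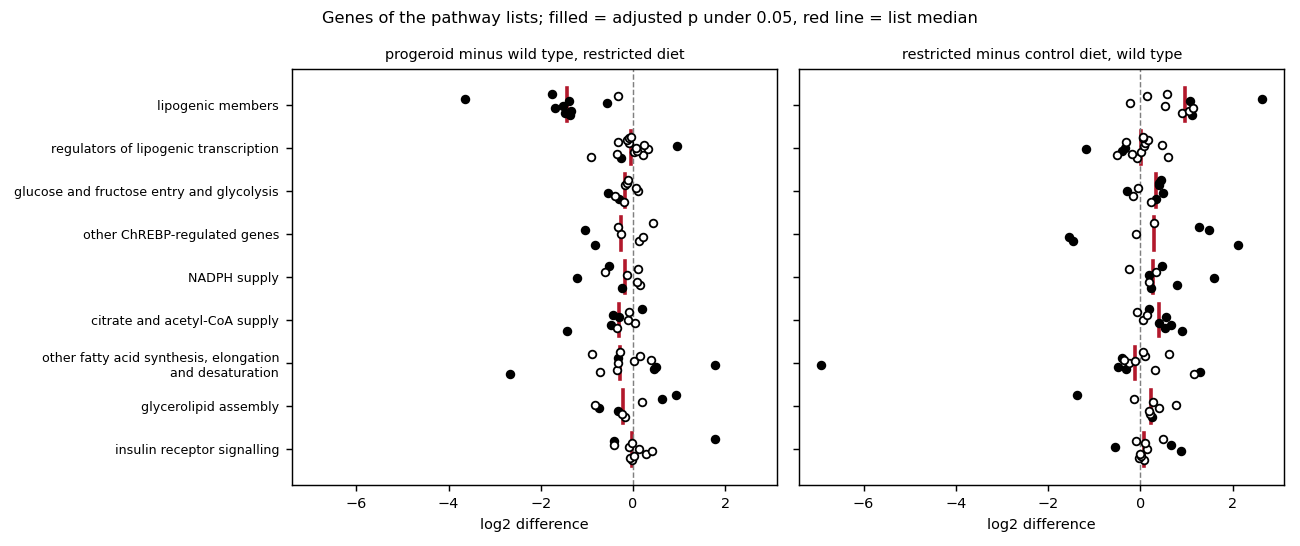
Log2 differences of every measured gene of the lipogenic set and of 8 related lists, 1 point per gene, on the left progeroid minus wild type on the restricted diet and on the right restricted minus control diet in wild type mice; filled points have an adjusted p under 0.05 and red lines are list medians. The lipogenic set has its median at -1.44 on the left and 0.98 on the right.

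Other measures moved with the same groups. The levels of the 8 Kupffer cell and macrophage markers were summed on the linear scale, and the log2 of that sum ran from 11.87 to 12.67 in restricted progeroid livers, against 11.19 to 11.79 in restricted wild type livers, and 6 of the 8 were higher in restricted progeroid livers (limma), among them Clec4f by 0.89, where 11.8% of all genes were called higher. On the control diet the sums ran from 11.94 to 12.55 in progeroid livers and from 11.67 to 12.04 in wild type livers. Within groups these sums correlated with the mean residual of the 10 genes, over the 20 arrays, at -0.589 for Kupffer cell, -0.482 for hepatocyte, -0.452 for endothelial, -0.257 for stellate cell and -0.212 for cholangiocyte markers, and at 0.449 for lymphocyte and neutrophil and 0.314 for adipocyte markers. Their part in the differences of the members was not tested. Of the 5 adipocyte markers measured 4 had group means under 5, with Adipoq at 3.38 in restricted progeroid livers and 3.35 in restricted wild type livers, so the sum rests on Fabp4. The adipocyte sum was 8.95 to 9.28 in restricted progeroid livers, 8.70 to 9.16 in control-fed progeroid livers, 8.80 to 9.10 in restricted wild type livers and 8.31 to 8.61 in control-fed wild type livers, which lay below all the others. Of 8 stellate cell markers 3 were higher in restricted progeroid livers, of 6 endothelial markers 1 was, of 5 lymphocyte and neutrophil markers 2 were, of 4 cholangiocyte markers 0 were, and none of these lists had a member called lower, against the same 11.8% of all genes called higher. Lymphocyte and neutrophil sums did not overlap between genotypes, with 7.02 to 7.82 in restricted progeroid and 6.57 to 6.81 in restricted wild type livers, and 7.16 to 7.65 in control-fed progeroid and 6.45 to 6.63 in control-fed wild type livers. Of those 5 markers 4 had means under 5 in each group except control-fed wild type livers, where all 5 did. The 4 cholangiocyte markers had means under 5 in every group. With the mean residual of the 10 genes, S100a8 and S100a9 correlated at 0.381 and 0.442, Cd3e at 0.110, Cd79a at -0.034 and Cd3g at -0.320. Hepatocyte sums ran from 16.78 to 16.81 in restricted progeroid livers and from 16.74 to 16.80 in restricted wild type livers.

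Clock genes separated the diets in both genotypes. Of 15 measured clock genes 9 were higher and 5 lower under restriction in progeroid livers, and 9 were higher and 2 lower in wild type livers, while 0 were higher and 2 lower between genotypes on the restricted diet. Of all genes 6.94% were called higher and 5.07% lower under restriction in progeroid livers, and 9.92% higher and 12.6% lower in wild type livers. Between genotypes on the restricted diet 11.8% of all genes were called higher and 5.44% lower in progeroid livers. The log2 of their summed linear level ran from 12.75 to 13.03 in restricted and from 11.75 to 12.58 in control-fed progeroid livers, and from 12.75 to 13.09 in restricted and from 11.91 to 12.62 in control-fed wild type livers. Within groups it correlated with the mean residual of the 10 genes at -0.459 over the 20 arrays. Cry2, a repressor of the clock, rose with restriction by 0.92 in progeroid and 0.93 in wild type livers (limma, adjusted p = 3.52e-05 and 7.39e-06), and Nfil3, a clock output repressor, fell by 1.77 in progeroid livers and fell by 2.46 in wild type livers (adjusted p = 0.00157 and 2.34e-05). The part of feeding time or sampling time in the diet differences of the lipogenic genes was not tested.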

How the data were processed

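Total liver RNA of 20 mice was read on 20 Affymetrix arrays in 4 groups of 5, grouped by the labels; the labels name separate animals. The deposited log2 values were made by the authors with RMA, per the submitters' processing notes, with neither version nor array definition stated there. RMA sets all arrays to 1 distribution, so a shift of all genes between groups would be removed, and it compresses low levels. Medians over all 45141 probe sets lay between 4.17 and 4.21. Precision is limited by the 5 arrays per group.

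Gene symbols came from the platform annotation; 551 with several symbols and 15588 with none were not used. Each of 17097 genes was represented by its brightest single-symbol probe set. One mean per group was fitted with limma 3.58.1 in R 4.3.3 (lmFit, eBayes, all 20 arrays), with 5 contrasts, two-sided tests and Benjamini-Hochberg adjustment per contrast at 0.05. Errors are moderated SEs. The fit was tested on simulated data. Promoters, sequences and coordinates came from RefSeq tables of GRCm38.p6.

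The 10 genes and the lists were chosen with earlier results of these data known. Beside the 10 genes and Ercc1, the text names the 2 genes of each list with the smallest adjusted p over the pairwise contrasts, Srebf1, Mid1ip1, Txnip, the 6 most alike genes, and others said to be picked later. Alternatives changed the probe set rule, filter, centring, variance model, arrays fitted, array weights and each mouse.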

Additional observations from a re-analysis of the deposited data

Results flagged for a closer look

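In 76 groups of 5 mice, 1 for each probe set of the 10 genes in each of the 4 groups, 11 held a mouse far from the other 4 by Dixon's criterion; chance gives about 1 in 20 groups, and the probe sets share mice, so these are not independent. Restricted progeroid mouse 362 was highest for Acaca at 9.38 (next 8.13), for the Elovl6 probe sets at 10.73 (next 9.19) and 11.31 (next 9.66), for Pnpla3 at 6.07 (next 4.10) and for Pklr at 10.04 (next 9.03). Control-fed progeroid mouse 321 was highest for Pnpla3 at 8.31 (next 5.44). Control-fed wild type mouse 405 was highest for the Acly probe sets at 10.29 (next 9.19) and 12.13 (next 11.21), for the second Scd1 probe set at 10.85 (next 9.66), for Pnpla3 at 7.36 (next 5.36) and for a Pklr probe set at 8.31 (next 7.87). All 11 lay on the high side of their group.

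Of 104 groups for the other named genes 6 held such a mouse. These were Sgsm1 at 5.22 in restricted progeroid mouse 362, Elovl3 at 10.10 in control-fed progeroid mouse 327, Tm6sf2 at 9.39 in restricted wild type mouse 422, Idh2 at 10.20 in restricted wild type mouse 423, Cxadr at 8.54 in restricted wild type mouse 424 and Pparg at 5.80 in control-fed wild type mouse 403.

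The diet effect differed between genotypes by limma's test of the difference, progeroid minus wild type, for the third Elovl6 probe set (-3.18 on the log2 scale, adjusted over all probe sets), for Elovl3 (2.18) and for Plin2 (1.16).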

How the results depend on the processing

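Among the values of single genes among the 10 under all alternatives, 1296 of 1385 kept direction and side of the threshold, 20 lost the call, 34 gained it and 35 changed sign, each of these from an uncalled value; causes were not tested. The count of the 10 genes called between genotypes on the control diet (2) was 0 with the mean of all probe sets or only the 2 groups fitted 1 without suffixed probe sets or with trend and robust settings, 3 with a mean level of at least 5, centring or array weights, and 0 to 4 with 1 mouse left out. On the restricted diet (9) it was 8 without suffixed probe sets, 10 with the mean of all probe sets, centring or only the 2 groups, and 7 to 9 with 1 mouse left out. For the diet in progeroid livers (1) it was 0 without suffixed probe sets, which leave Mlxipl no value. For the diet in wild type livers (3) it was 5 with the mean of all probe sets, 8 with only the 2 groups and 3 to 6 with 1 mouse left out. For the difference of diet effects (0) it was 1 with the mean of all probe sets, with a mean level of at least 5 and with array weights, and 0 to 1 with 1 mouse left out. Over all genes, the difference of diet effects called 240 genes, 363 with array weights and 103 to 490 with 1 mouse left out. With 1 mouse left out the genotypes on the restricted diet gave 2258 to 3169 genes, against 2948. The diet in progeroid livers gave 1433 to 2074, against 2053. Centring each array on its median over genes shifted all genotype differences by -0.10 on the control diet and by -0.17 on the restricted diet; genes called were then 3562 (764 higher, 2798 lower), against 1883 (1145 higher, 738 lower), and 7671 (1158 higher, 6513 lower), against 2948 (2018 higher, 930 lower), while the counts of the 10 genes were 3 on the control diet (Thrsp gained), against 2, and 10 on the restricted diet (Scd1 gained), against 9. Signs changed on the control diet between genotypes for Elovl6 (0.42 with the mean of all probe sets), Pnpla3 (-0.091 centred, -0.11 with array weights) and Idh2 (-0.075 without suffixed probe sets; the call at 0.24 was also lost with the mean of all probe sets, centring, array weights and each of 6 single mice left out); for the diet in progeroid livers for Acaca (-0.15 with the mean of all probe sets, -0.00801 centred, -0.072 with array weights), Thrsp (-0.0089 centred) and Me1 (-0.090 with array weights); and for the difference of diet effects of Scd1 (-0.11 with the mean of all probe sets). With 1 mouse left out, signs changed between genotypes on the control diet for Fasn (-0.64 to 0.10), Elovl6 (-0.40 to 0.25) and Pnpla3 (-0.71 to 0.50), and between diets in progeroid livers for Fasn (-0.69 to 0.090), Acaca (-0.26 to 0.27), Elovl6 (-0.65 to 0.10), Thrsp (-0.29 to 0.41), Pklr (-0.050 to 0.41) and Me1 (-0.14 to 0.30). Other named genes kept their call in 1291 of 1361 values, lost it in 69 and changed sign in 1. No paired analysis was possible because the 4 groups share no animal numbers. Limits are 5 mice per group, genes near the bright or dim end of the scale (Scd1, Pnpla3), and no batch information.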
